A study of Mus musculus with 4 samples.

Results

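Photoreceptor fate transcription factors were examined in single-cell transcriptomes of the mouse retina. The 9 genes, chosen by name, were Crx, Nrl, Nr2e3, Otx2, Thrb, Rxrg, Rorb, Neurod1 and Mef2d, and all 9 were found among the 32285 genes of the files. The groups were 2 NLGF and 2 wild-type (WT) libraries, with 1 female and 1 male mouse in each, all 30 days old and with no treatment named. NLGF is the name of an App knock-in line that carries humanised and mutated amyloid beta sequence and models Alzheimer's disease; the labels give the name without spelling out its alleles, zygosity or strain background. Each library comes from 1 mouse, so animal and preparation cannot be told apart, and p-values rest on 2 libraries per genotype.

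These factors act in succession in the developing retina and stay on in mature photoreceptors. OTX2 commits precursors to the photoreceptor fate and is also kept in bipolar cells, CRX switches on the genes of the outer segment, and NRL with its target NR2E3 drives the rod programme and represses cone genes. The thyroid hormone receptor THRB and its partner RXRG pattern the opsins of cones, RORB acts upstream of NRL, NEUROD1 is a helix-loop-helix factor needed for cone opsin patterning and photoreceptor survival, and MEF2D works with CRX at photoreceptor enhancers.

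The files held 35191 barcodes with 85860041 unique molecular identifiers (UMIs), 8060 to 9068 barcodes and 19128388 to 23473093 UMIs per library. Filtering left 31559 cells, and pairs of libraries shared 17 to 34 barcodes. Classes were named from marker genes that did not include any of the 9 factors: 25339 rods (80.3% of cells), 681 cones, 698 rod bipolar cells and 1255 cone bipolar cells, beside 734 Müller glia, 664 amacrine cells, 89 endothelial cells, 85 horizontal cells and 80 microglia. Rods were shallow, with a median of 889 UMIs per cell, against 9072 in cones, 8899.5 in rod bipolar cells and 7596 in cone bipolar cells. The classes were set against their markers. The 12 rod markers took 6.41% to 7.20% of the UMIs of rods and 0.184% to 0.384% in both bipolar classes. Within rods they took 10.0% in the Pde6g-led cluster. They took 4.26%, 3.64% and 5.16% in the clusters led by 1700028K03Rik, Gm26917 and 2810030D12Rik, whose 10 leading genes held no rod marker. An unnamed cluster led by Nefl and Sncg had 4.24%. Cone markers took 3.77% to 4.40% in cones and 0.0279% to 0.0376% in rods. Some classes also held markers of others. In cones, rod markers took 2.88% and 1.59% of cone UMIs in the NLGF female and male, and 2.23% and 1.65% in the WT female and male. In cone bipolar cells, the 11 rod bipolar markers took 0.530% to 0.632% of UMIs, beside 0.499% to 0.553% for the 20 cone bipolar markers. Levels below are UMIs of a gene per 1000000 UMIs of a class in a library, scaled by TMM factors (CPM), as mean ± SD over the 4 libraries unless raw CPM is named. They are compared between cell classes for 1 gene at a time and, between classes, given as a description with no test.

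Crx, the homeobox activator of photoreceptor genes, had similar levels in both photoreceptor classes. It had 545, 527, 522 and 545 CPM in rods and 554, 536, 538 and 508 CPM in cones of the NLGF female, NLGF male, WT female and WT male. The libraries of rods and cones overlapped. Rod bipolar cells had 171 to 199.9 CPM and cone bipolar cells 151 to 179 CPM over the 4 libraries, again with overlap between the bipolar classes. After thinning every cell to 500 UMIs, a Crx UMI was seen in 22.5% of rods, 22.0% of cones, 7.45% of rod bipolar cells and 7.89% of cone bipolar cells.

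Nrl, the leucine zipper factor that specifies rods, stood at 1565 and 1697 CPM in rods of the NLGF female and male, and at 1739 and 1957 CPM in rods of the WT female and male. In cones it had 349 and 73.4 CPM in the NLGF female and male, and 216 and 65.4 CPM in the WT female and male. Both females were high in cones and both males low, in each genotype. Bipolar cells averaged lower still, at 44.9 ± 14.7 CPM in rod bipolar cells and 51.5 ± 5.28 CPM in cone bipolar cells, whose libraries overlapped. Rod bipolar cells of the NLGF male, at 65.7 CPM, reached the cones of the WT male. Nr2e3, the orphan nuclear receptor that acts below NRL, had means in the same order, with 1402 ± 63.5 CPM in rods and 107 ± 64.1 CPM in cones (SD, n = 4). It had 48.1 ± 11.7 CPM in cone bipolar cells, which overlapped cones, and 34.8 ± 9.54 CPM in rod bipolar cells.

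Outside rods, a Nrl UMI was also seen in classes that do not use NRL, at shares below and above that of cones. At 500 UMIs per cell, a Nrl UMI was found in 48.9% of rods and 5.87% of cones, against 2.01% of rod bipolar cells, 2.95% of cone bipolar cells, 3.68% of Müller glia and 4.07% of amacrine cells. In the small classes the shares were 7.87% of 89 endothelial cells, 11.8% of 85 horizontal cells and 18.8% of 80 microglia. Without thinning, the shares were 69.0% of rods, 38.5% of cones, 29.7% of rod bipolar cells, 28.4% of cone bipolar cells, 28.1% of Müller glia, 32.1% of amacrine cells, 33.7% of endothelial cells, 38.8% of horizontal cells and 40.0% of microglia. Microglia, which do not use NRL, held 350 ± 205 CPM of Nrl, and rod markers took 0.622% to 2.42% of their UMIs.

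In cones, the spread of Nrl between libraries sat in a few barcodes. Cones with more rod-marker than cone-marker UMIs numbered 13 of 146 and 6 of 172 in the NLGF female and male, and 21 of 208 and 2 of 155 in the WT female and male. These barcodes held 80.3% and 8.91% of the Nrl UMIs of cones in the NLGF female and male, and 69.8% and 5.88% in the WT female and male. Without them, raw CPM of Nrl in cones was 85.6 and 68.8 in the NLGF female and male, and 74.1 and 63.3 in the WT female and male, against 346, 74.1, 214 and 65.9 with them. Nr2e3 without them was at 63.3 and 62.8 raw CPM in the NLGF female and male, and at 46.5 and 48.1 in the WT female and male. A single barcode held 104 Nrl UMIs in the NLGF female, and 81 of its 146 cones had none. Whether these barcodes are pairs of cells was not tested.

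**Figure D1:**
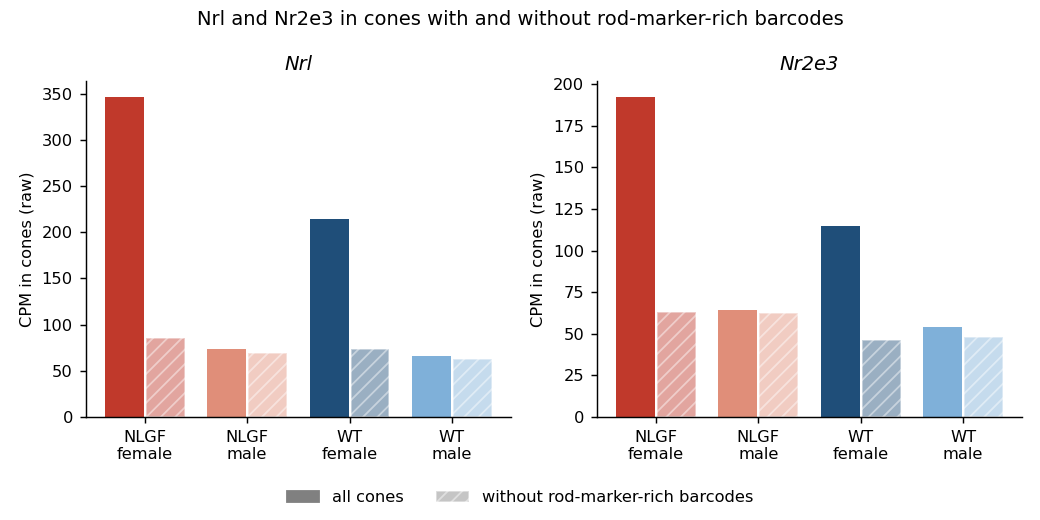
Raw CPM (y axis) of Nrl and Nr2e3 in the cones of each library, NLGF left of WT. Solid bars are all cones and hatched bars leave out barcodes with more rod-marker than cone-marker UMIs; Nrl in the NLGF female is 346 with them and 85.6 without.

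The promoters of these 3 genes are printed because Crx, Nrl and Nr2e3 carry the photoreceptor pattern. Each window is the 250 bases before the RefSeq start on the minus strand of GRCm38.p6, written 5′ to 3′, with every match to the 4 motifs searched on both strands in capitals.
Crx promoter, chr7:15879956-15880205: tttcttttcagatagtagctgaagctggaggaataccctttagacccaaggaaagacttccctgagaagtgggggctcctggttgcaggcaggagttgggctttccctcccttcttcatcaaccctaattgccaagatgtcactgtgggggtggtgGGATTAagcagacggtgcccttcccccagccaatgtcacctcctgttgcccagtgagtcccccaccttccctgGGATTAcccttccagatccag
Nrl promoter, chr14:55524253-55524502: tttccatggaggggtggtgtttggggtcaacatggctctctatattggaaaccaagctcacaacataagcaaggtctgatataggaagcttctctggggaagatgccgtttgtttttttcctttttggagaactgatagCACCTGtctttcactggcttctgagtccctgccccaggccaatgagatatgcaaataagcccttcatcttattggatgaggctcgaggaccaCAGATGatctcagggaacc
Nr2e3 promoter, chr9:59950080-59950329: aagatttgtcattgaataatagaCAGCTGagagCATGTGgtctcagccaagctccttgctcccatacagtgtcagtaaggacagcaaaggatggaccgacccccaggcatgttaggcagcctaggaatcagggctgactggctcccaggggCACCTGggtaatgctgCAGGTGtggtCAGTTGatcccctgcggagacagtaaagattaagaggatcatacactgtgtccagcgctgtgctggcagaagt
The motifs were TAATCC, the core read by CRX and OTX2, AGGTCA, a nuclear receptor half-site, TGCTGA, a Maf half-site of the kind NRL reads, and CANNTG, the E-box of helix-loop-helix factors such as NEUROD1. The Crx window held GGATTA, the reverse complement of the CRX and OTX2 core, at 94 to 89 and at 21 to 16 bases before the start. Of all 32851 windows of this length, 6.25% held that core. The Nrl window held 2 E-boxes and the Nr2e3 window 5, where 66.2% of windows held at least 1. AGGTCA was in 14.0% of windows and TGCTGA in 16.1%, and neither was in these 3.

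In the annotation of GRCm38 (GENCODE M21) all 9 are protein-coding genes. Crx spans chromosome 7 from 15865947 to 15879968 and Nrl chromosome 14 from 55518978 to 55524981. Nr2e3 spans chromosome 9 from 59942771 to 59960659, and these genes lie on the minus strand. The Nrl and Nr2e3 windows printed above lie inside these spans, so their RefSeq starts are downstream of the annotated gene starts. The Crx window overlaps the edge of its span. Thrb spans chromosome 14 from 17660261 to 18038090 and Rxrg chromosome 1 from 167598384 to 167639623, both on the plus strand. Gene counts do not tell Thrb isoforms apart, so the cone isoform TRβ2 was not measured separately.

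Thrb, the thyroid hormone receptor needed for M opsin, was highest in cones in every library. It had 374 and 384 CPM in cones of the NLGF female and male, and 516 and 485 CPM in cones of the WT female and male. Rods had 101 ± 1.63 CPM, Müller glia 49.0 CPM, cone bipolar cells 33.3 ± 7.82 CPM and rod bipolar cells 2.94 ± 1.61 CPM (SD, n = 4). At 500 UMIs per cell, 20.3% of cones and 5.65% of rods had a Thrb UMI, and 0 of 698 rod bipolar cells did, for which a limit of 3 counts allows a share of up to 0.430% at this depth. Unthinned, the shares were 84.6% of cones, 11.3% of rods and 2.58% of rod bipolar cells. The share in rods was above that in rod bipolar cells at matched depth.

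Rxrg, the retinoid X receptor that pairs with THRB, was near absent outside cones. Its cone level was 55.1 and 78.5 CPM in the NLGF female and male, and 72.7 and 78.9 CPM in the WT female and male. The next class, amacrine cells, had 3.84 CPM, while rods had 0.242 CPM, rod bipolar cells 0.325 CPM and cone bipolar cells 0.257 CPM. At 500 UMIs, 22 of 681 cones had a UMI (3.23%, exact 95% interval 2.04% to 4.85%), 4 of 25339 rods did (0.0158%), and 0 of 1255 cone bipolar cells did, with an exact 95% upper bound of 0.294%. Unthinned, 43.5% of cones, 0.0316% of rods and 3 of 1255 cone bipolar cells had one. These limits cover counting error only.

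Otx2, the homeobox factor kept in bipolar cells, was higher there than in photoreceptors. It was at 439 ± 23.4 CPM in cone bipolar cells and 350 ± 14.7 CPM in rod bipolar cells, against 181 ± 11.1 CPM in rods and 128 ± 9.42 CPM in cones (SD, n = 4), and the order held in all 4 libraries. Rorb, a retinoid-related orphan receptor, was also higher in bipolar cells, with 802 ± 28.3 CPM in rod bipolar cells and 543 ± 33.3 CPM in cone bipolar cells, against 435 ± 15.7 CPM in rods and 303 ± 15.8 CPM in cones. Its highest levels lay outside these classes, at 1519 ± 103 CPM in Müller glia and 1370 ± 113 CPM in horizontal cells.

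Neurod1 and Mef2d were highest in cones. Neurod1 had 1233 ± 32.4 CPM in cones, 790 ± 22.6 CPM in rods, 532 ± 27.5 CPM in cone bipolar cells and 385 ± 15.5 CPM in rod bipolar cells (SD, n = 4), in the same order in every library. Mef2d had 276 ± 18.3 CPM in cones, 209 ± 9.07 CPM in rods, 193 ± 8.50 CPM in cone bipolar cells and 122 ± 8.51 CPM in rod bipolar cells, and the libraries of rods and cone bipolar cells overlapped.

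**Figure D2:**
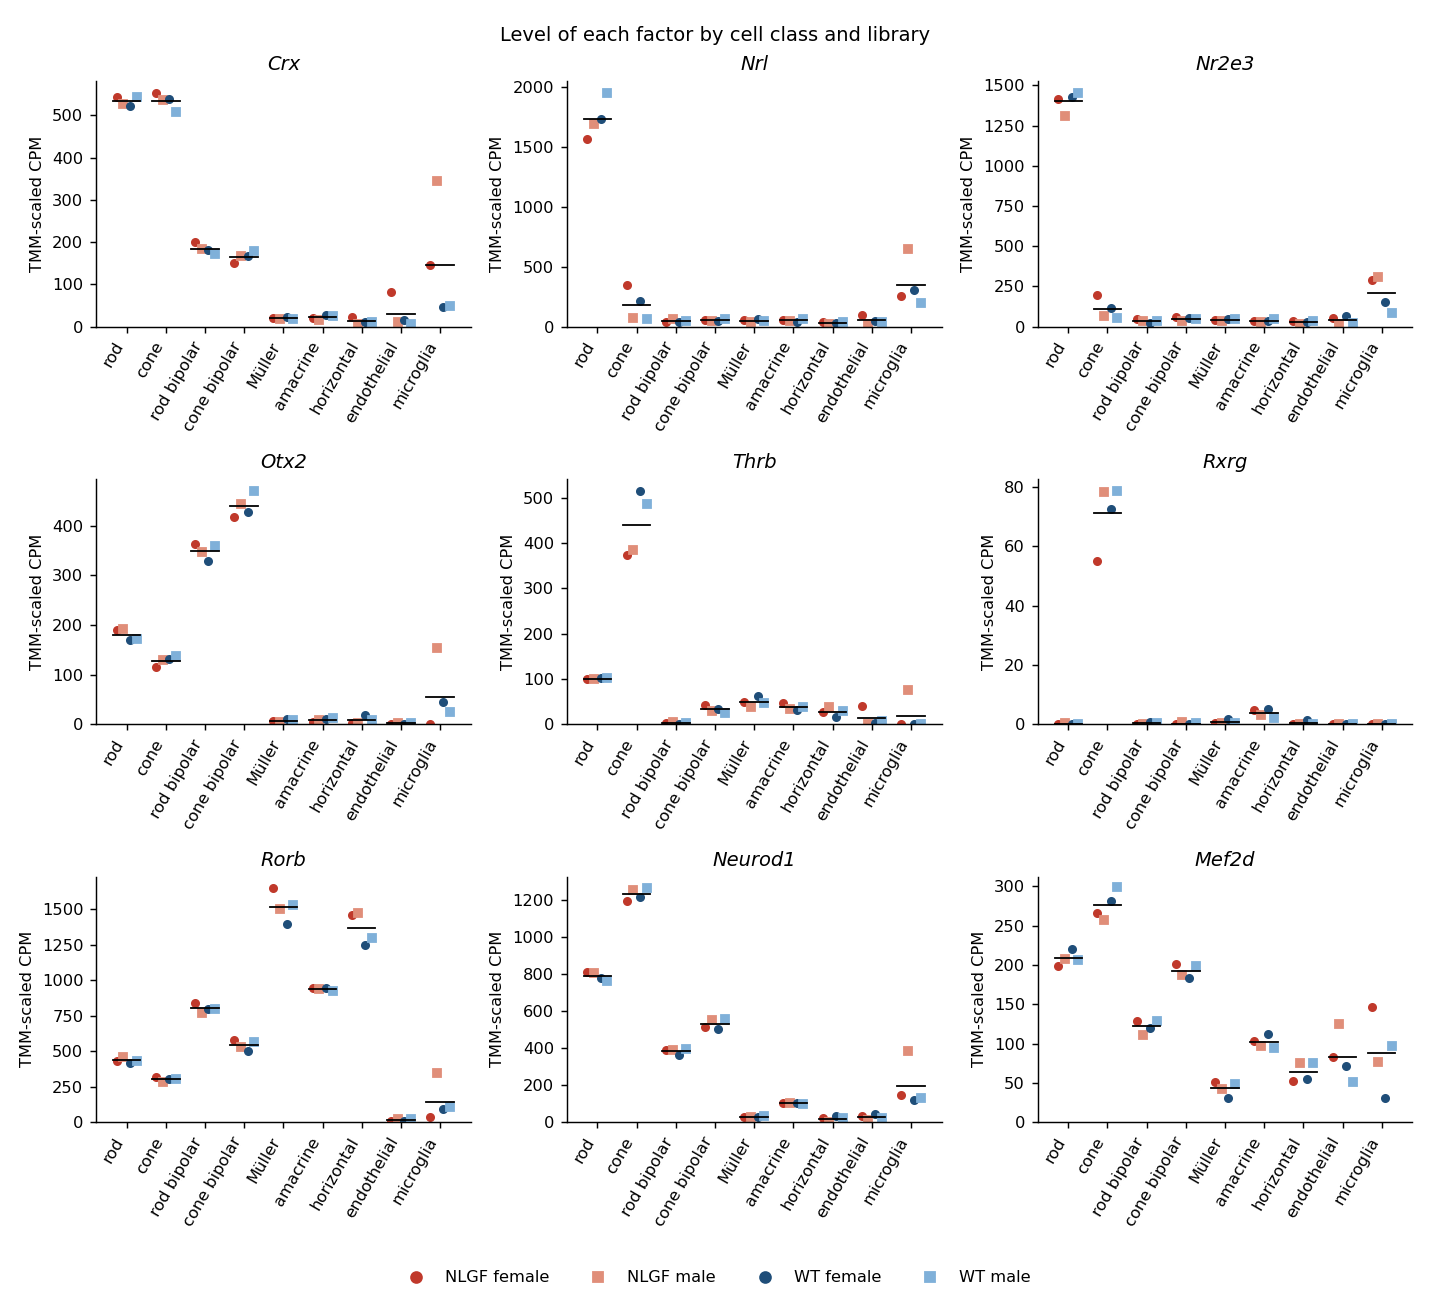
TMM-scaled CPM (y axis) of each factor by cell class (x axis); points are the 4 libraries, NLGF left of WT within a class, and lines are their means. Crx is level in rods and cones, Nrl and Nr2e3 stand high in rods, Thrb and Rxrg in cones, and Otx2 in bipolar cells.

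Across the means of 9 classes, the genes with the most similar pattern were named by Pearson's r of log2(CPM + 1) among 7686 genes, as a description over classes that share libraries. Nrl was most like Pde6a (0.997), Guca1b (0.995) and Gnat1 (0.994), which encode proteins of rod phototransduction, and Nr2e3 was most like Nrl itself (0.992). Crx was most like Slc17a7 (0.982), the glutamate transporter of photoreceptor terminals, and Unc119 (0.981). Otx2 was most like its antisense neighbour Otx2os1 (0.983), and since the sources used here do not give the strand of counting, reads of the pair may not be told apart. Thrb had no close match, with Clstn1 first (0.924), and its r with Rxrg was 0.739.

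Within rods, 3 of the 4 clusters are described here, each called by its leading gene, in raw CPM. In the largest, led by 1700028K03Rik (13416 cells, median 763 UMIs), Neurod1 averaged 744 CPM, Otx2 224 CPM and Thrb 128 CPM. The 2810030D12Rik-led cluster (4084 cells, median 1555 UMIs) had the highest Neurod1 (1200 CPM), Nr2e3 (1722 CPM) and Crx (617 CPM) of the rod clusters, and for these 3 factors it did not overlap the next cluster across libraries. Mef2d averaged most in the Gm26917-led cluster (264 CPM), whose libraries overlapped those of the next cluster.

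Cone bipolar clusters differed most in Thrb. The Adarb2 and Cntn5-led cluster had 129 and 125 raw CPM in the NLGF female and male, and 137 and 108 in the WT female and male, while the other 6 clusters averaged 1.51 to 21.3. No library of those 6 reached it. Neurod1 averaged 305 raw CPM in the Neto1-led cluster and 710 in the Cck-led one, and Otx2 ranged over 337 to 549 between clusters.

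**Figure D3:**
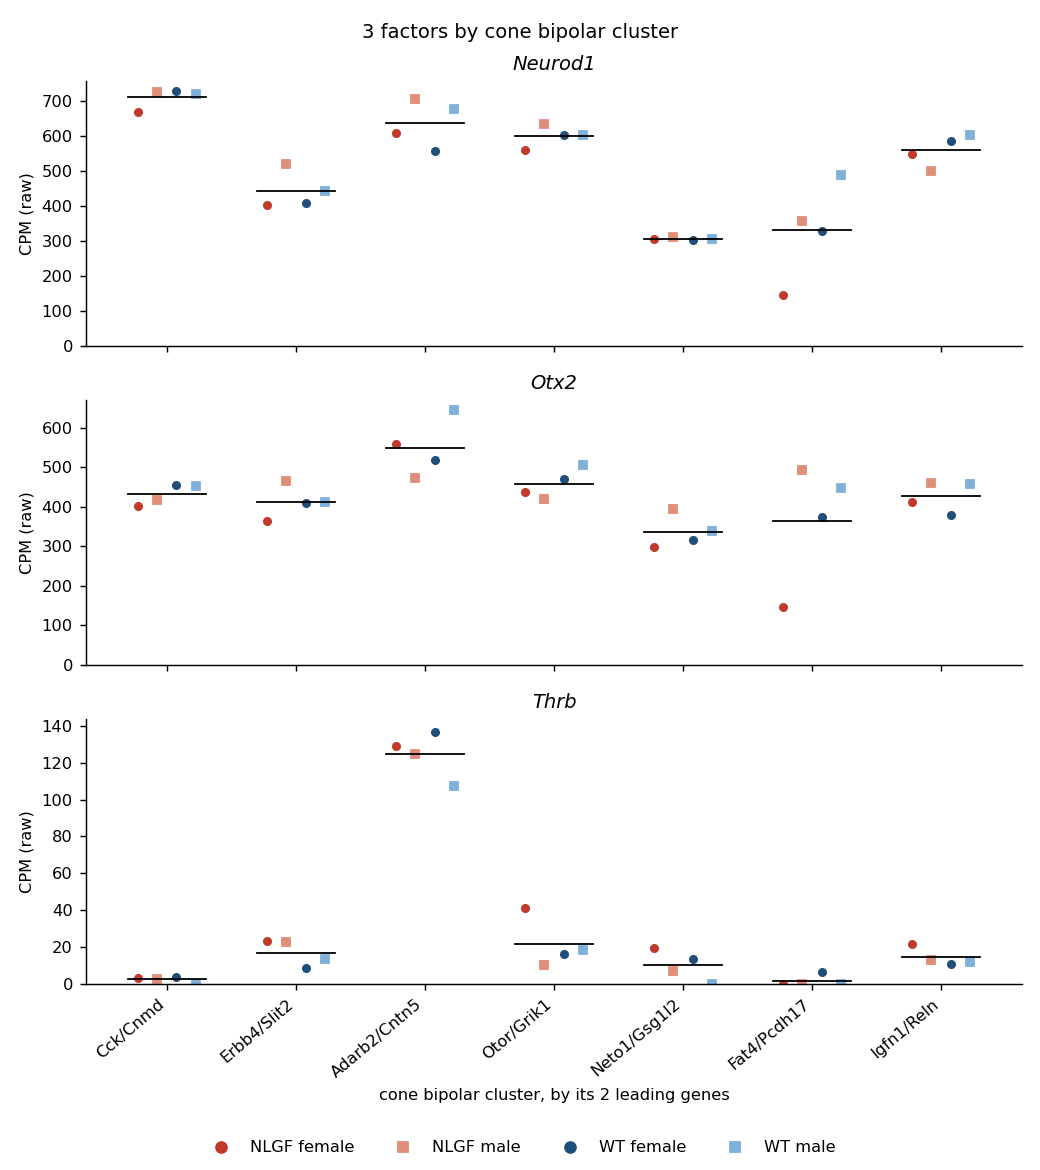
Raw CPM (y axis) of Neurod1, Otx2 and Thrb in the 7 cone bipolar clusters (x axis, by 2 leading genes); points are libraries, NLGF left of WT, and lines are means. Thrb averages 125 in the Adarb2 and Cntn5-led cluster and stays at or under 21.3 on average in the others.

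NLGF was then compared with WT in each class, with edgeR's quasi-likelihood test on UMIs summed per library and class and Benjamini-Hochberg adjustment over all genes. With genotype as the only term and all 4 libraries, none of the 9 factors passed an adjusted p of 0.05 in any of the 4 classes. The share of all genes called was 0.00806% in rods (1 of 12405), 0% in cones (0 of 9394), 0% in rod bipolar cells (0 of 9308) and 0.0175% in cone bipolar cells (2 of 11461, of which 0.00873% higher and 0.00873% lower). The called genes, named after their values were seen, included Klhl23 in rods (log2 fold change -0.81) and Dstn in cone bipolar cells (-0.39). DESeq2 called 1, 0, 0 and 0 genes, and 1010, 536, 576 and 719 genes had an unadjusted edgeR p under 0.05. The rod count rests on all 4 libraries: leaving out the NLGF female gave 22, the NLGF male 39, the WT female 1035 and the WT male 141.

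In rods 8 factors were tested, Rxrg being too low, with adjusted p of 0.670 to 0.995 by edgeR. Otx2 had 189 and 191 CPM in the NLGF female and male, and 170 and 172 CPM in the WT female and male. The genotypes did not overlap, at a log2 fold change of 0.15 ± 0.09 (SE) and an edgeR adjusted p of 0.670. Nrl, at the values given above, had a log2 fold change of -0.18 ± 0.11 (edgeR adjusted p = 0.676). With 1 library left out, this change lay between -0.27 and -0.093. Whether a factor passed in such fits is not given, because each leaves 1 library in a genotype. The genotypes did not overlap for 5 of the 8 (Nrl, Nr2e3, Otx2, Thrb and Neurod1), where 39.4% of all genes tested in rods did not.

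The make-up of the rods differed between libraries. The Gm26917-led cluster held 7.92% and 8.64% of rods in the NLGF female and male, and 2.17% and 17.1% in the WT female and male. The 2810030D12Rik-led cluster held 19.5% and 19.2% in the NLGF female and male, and 14.3% and 11.9% in the WT female and male. The part of this make-up in the rod results was not tested.

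In cones all 9 were tested, with edgeR adjusted p of 0.862 to 0.993. Thrb had the smallest unadjusted p of them. At 374 and 384 CPM in the NLGF cones against 516 and 485 CPM in the WT cones, it averaged 379 ± 6.53 CPM in NLGF and 500 ± 21.7 CPM in WT (SD, n = 2 each). The log2 fold change was -0.40 ± 0.10 (SE), with an edgeR adjusted p of 0.862. Its direction held without each library in turn, at -0.44 to -0.36. Without the rod-marker-rich barcodes the log2 fold change was -0.41 ± 0.09 (edgeR adjusted p = 0.112). Otx2, Thrb and Mef2d did not overlap between genotypes, 3 of 9, where 35.7% of all genes tested in cones did not.

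Nrl and Nr2e3 in cones turned with the libraries chosen. Nrl had a log2 fold change of 0.57 ± 0.55 (edgeR adjusted p = 0.922). It was -0.96 without the NLGF female, 1.69 without the WT female and 1.30 without the NLGF male. Nr2e3 had 0.59 ± 0.40 (edgeR adjusted p = 0.898). It was -0.43 without the NLGF female, 1.26 without the WT female and 1.18 without the NLGF male. Each of these fits leaves 1 library in a genotype, so it cannot measure the spread between mice of that genotype. Without the rod-marker-rich barcodes, Nrl was at 0.15 ± 0.16 and Nr2e3 at 0.40 ± 0.17 (edgeR adjusted p = 0.890 and 0.622).

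In rod bipolar cells 7 factors were tested (edgeR adjusted p = 0.827 to 0.993) and in cone bipolar cells 8 (0.867 to 0.991). Crx and Nr2e3 did not overlap between genotypes in rod bipolar cells, 2 of 7 against 35.9% of all genes, and none did in cone bipolar cells, 0 of 8 against 35.7%. Nr2e3 in rod bipolar cells had 45.9 and 35.7 CPM in the NLGF female and male, and 22.6 and 35.1 CPM in the WT female and male. The log2 fold change was 0.47 ± 0.23 (SE, edgeR adjusted p = 0.827). In these cells rod markers took 0.205% and 0.269% of UMIs in the NLGF female and male, and 0.184% and 0.212% in the WT female and male, and 29 of 38 rod genes tested had positive log2 fold changes, with a median of 0.16. Their part in the Nr2e3 value was not tested.

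The genotype effect in rods was also tested against that in each other class, as an interaction. None of the 9 factors tested against cones passed (edgeR adjusted p = 0.974 to 0.996), where 0% of 12267 genes did. None of 8 did against rod bipolar cells (0.00795% of 12582 genes) or cone bipolar cells (0.0447% of 13420 genes). For Thrb, the effect in cones minus that in rods was -0.36 ± 0.15 on the log2 scale (SE). Leaving out 1 library at a time gave differences from rods to cones of -0.69 to 1.71 for Nrl and -0.24 to 1.27 for Nr2e3.

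**Figure D4:**
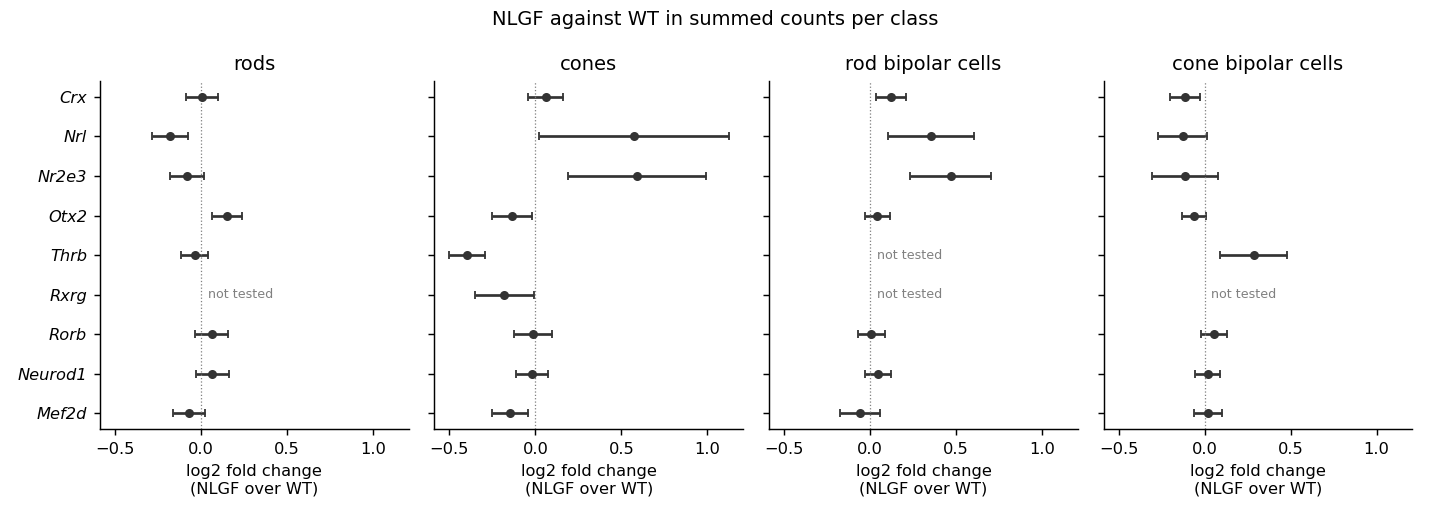
Log2 fold change of NLGF over WT (x axis) of each factor in rods, cones, rod bipolar cells and cone bipolar cells; bars are standard errors of the edgeR fit. None passed the adjusted threshold, and Thrb in cones lies at -0.40 ± 0.10.

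Of 4 lists of genes from the same programmes, 0 genes passed in any class. Of 40 rod genes bound or driven by CRX, NRL and NR2E3, all were tested in rods, 36 had negative and 4 positive log2 fold changes, and the median was -0.13, against 0.01 over all genes. Other lists lay as low in rods: 14 of 18 cone genes were negative with a median of -0.17, and 19 of 24 bipolar factors with a median of -0.13. In cones 24 of the 40 rod genes were positive, with a median of 0.08. Pde6g, a subunit of the rod phosphodiesterase, had 4463 and 4698 CPM in rods of the NLGF female and male, and 5209 and 6421 CPM in rods of the WT female and male (log2 fold change -0.34 ± 0.12, edgeR adjusted p = 0.583). The cone genes, 20 of 22 tested in cones, had a median of -0.06, and the other fate factors, 38 of 51 tested in rods, had -0.03. Bipolar factors, with 29 of 30 tested in cone bipolar cells, had a median of -0.00, with Bhlhe22 at -0.33 ± 0.10 (edgeR adjusted p = 0.497).

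Cones were also split by the opsin with more UMIs, which gives 272 cones with more Opn1mw (M-richer) and 404 with more Opn1sw (S-richer), and 5 tied. Both groups come from the same libraries, and counts were summed per library and group. Of 7861 genes, 2.81% passed the edgeR test at 0.05, 1.31% higher and 1.5% lower in M-richer cones. Gm44532 and Smug1 were higher, at 4.18 ± 0.24 and 2.02 ± 0.13 log2, and Ccdc136 lower, at -3.30 ± 0.11, with edgeR adjusted p of 2.25e-14, 2.57e-13 and 1.64e-21.

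Of the factors, 4 passed: Thrb, Nrl and Nr2e3 higher and Otx2 lower in M-richer cones. Thrb had 424, 419, 554 and 572 CPM in M-richer cones and 346, 365, 493 and 425 CPM in S-richer cones of the NLGF female, NLGF male, WT female and WT male. M-richer cones were higher in 4 of 4 libraries, by 0.27 ± 0.07 log2 (edgeR adjusted p = 0.0227). Otx2 averaged 106 ± 17.1 CPM in M-richer cones and 145 ± 16.1 CPM in S-richer cones (SD, n = 4), and was lower in 4 of 4 libraries (-0.45 ± 0.12, edgeR adjusted p = 0.0292). Neither was called by DESeq2 (adjusted p = 1.00 for both), nor by edgeR when the NLGF female, the NLGF male or the WT male was left out (0.0659, 0.0687 and 0.242 for Thrb; 0.165, 0.108 and 0.310 for Otx2). Thrb also missed the threshold at a mitochondrial share of at most 10% (edgeR adjusted p = 0.0574).

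Nrl averaged 235 ± 212 CPM in M-richer cones and 135 ± 78.3 CPM in S-richer cones (0.73 ± 0.14 log2, edgeR adjusted p = 0.000645), and Nr2e3 139 ± 99.3 against 84.3 ± 39.7 CPM (0.70 ± 0.13, edgeR adjusted p = 0.00102). Both calls ended without the rod-marker-rich barcodes, where Nrl was at -0.09 ± 0.16 and Nr2e3 at 0.26 ± 0.18 (edgeR adjusted p = 0.891 and 0.623). They also ended without the NLGF female (edgeR adjusted p = 0.207 and 0.125) and with DESeq2 (adjusted p = 1.00 and 0.591). Without those barcodes Thrb had an edgeR adjusted p of 0.000167 and Otx2 of 0.00622. Rxrg, at -0.46 ± 0.16, was lower in M-richer cones in 4 of 4 libraries without passing (edgeR adjusted p = 0.149).

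Thrb stood lower in NLGF in both opsin groups. M-richer cones had 424 and 419 CPM in NLGF against 554 and 572 CPM in WT. S-richer cones had 346 and 365 CPM in NLGF against 493 and 425 CPM in WT. The genotypes did not overlap in either group, but the share of all genes without overlap was not counted there. Crx in M-richer cones and Mef2d in S-richer cones did not overlap either. Both groups come from the libraries of the cone result above, so they are no separate evidence. M-richer cones made up 38.4% and 35.5% of cones in the NLGF female and male, and 43.3% and 41.9% in the WT female and male. These values are a description, with no test within the groups.

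**Figure D5:**
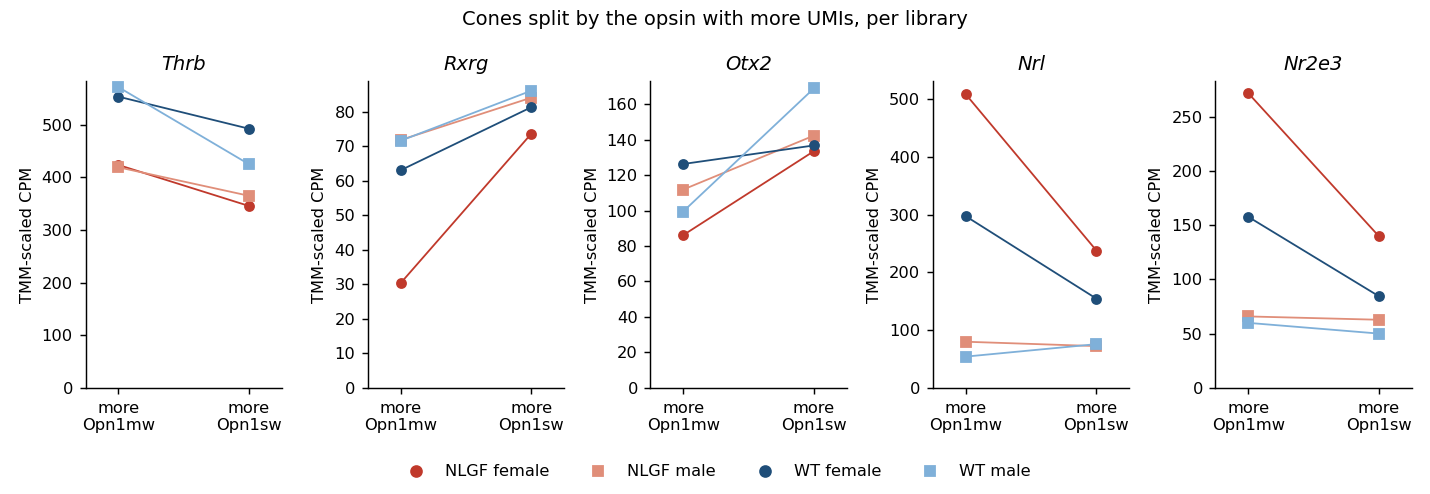
TMM-scaled CPM (y axis) of 5 factors in cones with more Opn1mw (left) and with more Opn1sw (right); each line joins the 2 opsin groups of a library. Thrb is higher on the left in all 4 libraries and Otx2 lower, while the slopes of Nrl and Nr2e3 are steep in the females.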

How the data were processed

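The values the authors deposited are raw counts of UMIs for each gene in each barcode, 1 matrix per library. Cell Ranger 6.1.1 wrote them, per the file headers; version 3.1.0, STAR and mm10 stand in the submitters' processing notes. Intron counting and strand are not given in the sources. Barcodes were kept from 300 genes upward and up to 20% of mitochondrial UMIs (33329). Scrublet (scanpy 1.11.5) marked only 2 barcodes at its own threshold, so the top 6% of scores per library were removed (1770). Cells were scaled to 10000 UMIs and clustered (2000 variable genes without the 9 factors, 30 components, 20 neighbours, Leiden resolution 1).

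Choices made after clusters were seen: 6 sex-linked genes were left out of the variable genes, because a first clustering gave a cluster led by Tsix of almost only female cells, and the naming rule was made stricter. At least 3 detected markers and a mean marker z of 0.8 are needed for a name without markers among the 10 leading genes; 1911 cells in 5 clusters stayed unnamed. Names rest on markers alone and read as rod-like and so on.

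Summed counts were tested with edgeR 4.0.16 (TMM, filterByExpr) and, as an alternative, DESeq2 1.42.0, and the code was tested on simulated data. The opsin split had library as a term. Standard errors are the log2 fold change over the square root of F. The factors, gene lists and tests were chosen with earlier results of these data known. All 9 factors were named, the 2 genes of smallest p per list and class where none passed, the 3 most similar genes, and the 5 genes of smallest p per direction in the opsin split; the text gives a selection of them. Some results are not reported here.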

Additional observations from a re-analysis of the deposited data

How the results depend on the processing

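No factor passed in the 4 genotype comparisons with all 4 libraries and edgeR's main settings, but counts of called genes moved. Rods (1 gene) gave 113 without a filter on low counts, 165 with sex as a replicate block, 0 with thinned counts and 22 to 1035 with 1 library left out. Cones (0) gave 50 with the block, 12 to 61 with 1 library left out, 3 with doublets kept and 6 without rod-marker-rich barcodes. Rod bipolar cells (0) gave 35 without a filter, 31 with the block, 16 to 34 with 1 library left out, 1 with doublets kept, 15 at 10% mitochondrial share and 1 thinned. Cone bipolar cells (2) gave 45 without a filter, 34 with the block, 6 to 49 with 1 library left out, 8 thinned, and 0 with DESeq2, doublets kept, 10% mitochondrial share or the 2 unnamed deep clusters added.

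The rods against cones difference (0) gave 3 without a filter, 45 with the block and 0 to 27 with 1 library left out. Against rod bipolar cells (1) it gave 0 with DESeq2, 2 with doublets kept, 5 at 10% mitochondrial share and 1 to 88 with 1 library left out. Against cone bipolar cells (6) it gave 0 with DESeq2, 3 with doublets kept, 3 thinned, 11 in cells with at least 1000 UMIs and 0 to 196 with 1 library left out. The opsin split (221) gave 57 with DESeq2, 142 thinned and 138 to 177 with 1 library left out. The causes were not tested.

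The numbers shared by the genotypes mark sex and not a shared animal. With sex as a replicate block, Thrb, Nrl and Nr2e3 in cones passed (edgeR adjusted p = 0.00188, 0.00215 and 0.00849), as did Nrl and Nr2e3 in the rods against cones difference (0.000200 and 0.0185).

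Signs turned in a few places. Crx in rods was at -3.8e-05 with DESeq2 and -0.0045 without the Gm26917-led cluster. Thrb in rods was at 0.00033 thinned and 0.04 in cells with at least 1000 UMIs. Rorb in cones was at 0.0055 with doublets kept and 0.037 at 10% mitochondrial share, and in rod bipolar cells at -0.0078 without a filter. In cone bipolar cells, Nr2e3 was at 0.0073 with doublets kept, and Mef2d at -0.028 with unnamed clusters added. There Opn1mw went from 2.35 to -0.30 and Arr3 from 1.95 to -0.14 with doublets kept. In the main run the NLGF male had 37.0 CPM of Opn1mw, against 2.58 to 7.01 CPM in the other libraries. For Arr3 it had 49.7 CPM, against 4.19 to 12.5 CPM. Nrl in the opsin split was at -0.088 without rod-marker-rich barcodes.

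With 1 library left out, log2 fold changes ranged as follows. For the genotype fits and the rods against cones difference, whether a factor passed is not given, because 1 genotype then holds 1 library. Crx in rods was between -0.033 and 0.037. In cones, Nrl was between -0.96 and 1.69, Nr2e3 between -0.43 and 1.26, Rxrg between -0.46 and 0.047, Rorb between -0.11 and 0.074 and Neurod1 between -0.054 and 0.0099. In rod bipolar cells, Nrl was between -0.20 and 0.71, Otx2 between -0.012 and 0.11, Rorb between -0.060 and 0.070, Neurod1 between -0.0095 and 0.12 and Mef2d between -0.17 and 0.053. In cone bipolar cells, Nrl was between -0.26 and 0.040, Nr2e3 between -0.56 and 0.33, Otx2 between -0.13 and 0.011, Rorb between -0.029 and 0.14, Neurod1 between -0.057 and 0.096, Mef2d between -0.038 and 0.076 and Arr3 between -0.43 and 2.87. The rods against cones difference was between -0.69 and 1.71 for Nrl and between -0.24 and 1.27 for Nr2e3. In the opsin split, Crx was between -0.025 and 0.067 and Mef2d between -0.13 and 0.030.

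In all, 855 of 961 log2 fold changes kept direction and side of the threshold, 51 passed it only under the alternative, 14 no longer passed and 41 changed sign. These totals also cover list genes and opsin-split genes picked for their small p, so they do not measure the factors alone. Allowing the factors among the variable genes was not a separate run, since none ranked among the 2000. The alternatives without rod-marker-rich barcodes, without the Gm26917-led cluster and with unnamed clusters added were chosen after seeing the data. A lone library is assumed to vary like the others.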
